A study of Drosophila melanogaster with 3 samples.

Results

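The intergenic peaks described here are the reproducible binding sites of the zinc finger protein CG5245 whose summit lies in no annotated gene and more than 500 bp from every annotated transcription start site (TSS). They numbered 546 of the 3670 reproducible peaks (14.9%) on the dm6 assembly of Drosophila melanogaster. The other reproducible peaks had their summits at promoters, within 500 bp of a TSS (1799), in introns (1240) or in exons (85). The choice used position alone and no measured signal. Just inside the distance limit, 32 summits outside genes lay 501 to 600 bp from a TSS, the nearest at 502 bp, with a median signal of 154.3. Just outside it, 33 lay at 401 to 500 bp, the nearest to the limit at 499 bp, with a median signal of 154.9.

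All samples belong to 1 group of 3 biological replicates. Each replicate was a chromatin immunoprecipitation with sequencing (ChIP-seq) of whole embryos aged 0 to 16 h, males and females pooled, from a stable transgenic line in which CG5245 carried green fluorescent protein at its C terminus. The labels describe precipitation through the tag with an antibody to GFP, although their antibody field names CG5245 itself. The control library and any untagged embryos were not analysed here, and whole embryos mix all cell types and many stages. The lists hold no read counts, so sequencing depth is unknown. The signal of a peak is the authors' own value and is used only to rank peaks within a list.

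In ChIP-seq, DNA bound by a protein is recovered with it, and a peak marks where fragments pile up. In the fly genome, DNA between genes holds enhancers, which act on promoters at a distance, silencers such as Polycomb response elements, and insulators, which limit how far such elements act. CTCF, Su(Hw), BEAF-32 and other zinc finger proteins mark insulators in flies, and C2H2 zinc fingers such as those of CG5245 are a common DNA-binding fold.

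The sequences of 6 strong intergenic peaks show the DNA at the summit, because the short elements described further on lie there. Each is the dm6 plus strand, 101 bp centred on the summit, read from the Release 6 genome. Capitals mark GGTCACAC, the element of the core promoter factor M1BP, in the first sequence, and the core of the fly CTCF element in the others. The core was taken as AGATGGCG or AGGTGGCG, which read CGCCATCT or CGCCACCT where they lie on the minus strand. The peaks lay between slp1 and slp2 (chr2L:3832470-3832570), soti and cv-c (chr3R:14391387-14391487), CG13970 and CG10651 (chr2L:20121029-20121129), jp and lncRNA:CR44149 (chr2L:9567455-9567555), Sid and snu (chr3R:28672352-28672452), and Cad89D and Gr89a (chr3R:16497499-16497599).
slp1 and slp2: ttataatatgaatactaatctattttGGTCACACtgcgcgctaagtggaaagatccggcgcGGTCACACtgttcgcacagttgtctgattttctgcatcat
soti and cv-c: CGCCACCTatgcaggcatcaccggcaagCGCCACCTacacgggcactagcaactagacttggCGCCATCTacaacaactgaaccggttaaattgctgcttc
CG13970 and CG10651: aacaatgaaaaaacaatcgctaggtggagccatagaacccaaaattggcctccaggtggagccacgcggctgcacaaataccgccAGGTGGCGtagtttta
jp and lncRNA:CR44149: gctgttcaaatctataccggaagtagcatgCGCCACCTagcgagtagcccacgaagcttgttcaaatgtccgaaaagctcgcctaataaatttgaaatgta
Sid and snu: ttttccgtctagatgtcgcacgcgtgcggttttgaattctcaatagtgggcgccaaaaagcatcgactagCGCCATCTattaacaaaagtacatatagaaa
Cad89D and Gr89a: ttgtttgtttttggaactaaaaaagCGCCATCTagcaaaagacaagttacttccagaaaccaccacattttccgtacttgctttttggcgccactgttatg

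The strongest intergenic sites lay beside a pair of long non-coding RNA genes, Su(z)2, blw and CycB, and C15. The 15 strongest that were also strong in every replicate had signals from 542 to 1096, and none ranked below 202 in any replicate. Of the 100 strongest reproducible peaks, 13 were intergenic. The strongest, on chromosome 3R from 16222300 to 16222670, lay between the long non-coding RNA genes lncRNA:CR45641 and lncRNA:CR45643, 907 bp from the start of the latter. Its signal was 378 in replicate 1, 362 in replicate 2 and 357 in replicate 3, which ranked it 21, 15 and 9. A second intergenic peak followed with its summit at 16224475, between lncRNA:CR45643 and tara, which encodes a transcriptional co-regulator, and ranked 151, 127 and 165.

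Both Psc and Su(z)2, neighbouring genes for related subunits of a Polycomb repressive complex, had strong sites beyond their 3′ ends. The peak on 2R from 13035153 to 13035514 lay 27465 bp beyond Su(z)2 and 9319 bp from the 3′ end of CG13323. Its signals of 422, 335 and 302 ranked 14, 18 and 17 in the 3 replicates. The peak between CG13321 and Psc, from 12958047 to 12958414, lay 7817 bp beyond the 3′ end of Psc and ranked 97, 108 and 112, with signals of 222, 178 and 148. This interval was listed with 2 summits, at 12958180 and 12958398, and another peak followed with its summit at 12959476.

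The paralogous forkhead genes slp1 and slp2, which pattern the segments, shared a peak at 3832520 on 2L with signals of 287, 201 and 184 and ranks of 53, 76 and 71. A second peak in the same 9740 bp gap, at 3827934, ranked only 1382, 1998 and 1501. The homeobox gene C15, which patterns the tip of the leg, had a peak 7566 bp beyond its 3′ end, 548 bp upstream of sp3, with ranks of 19, 57 and 70. A peak 10512 bp from the nearest TSS lay between lncRNA:CR45148 and shg, the gene of E-cadherin, and ranked 152, 139 and 57. Its place in replicate 3 was the highest of the 3, whereas the C15 site was highest in replicate 1.

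The rest of the 15 had flanking genes with varied roles. Among the flanking genes, blw encodes a subunit of mitochondrial ATP synthase, CycB encodes the mitotic cyclin B, and RasGAP1 encodes a regulator of Ras. In the same group were Glut3, a sugar transporter gene, cv-c, and RabGGTa, a subunit of the enzyme that attaches lipid to Rab proteins. Their peaks ranked from 27 to 124 in the replicates. The other pairs were COX7AL2 and CG31668, CG13970 and CG10651, CG3149 and lncRNA:CR42794, and mir-9385 and lncRNA:CR43437. Of the 30 flanking positions, 7 were held by non-coding genes. Both flanking genes pointed the same way at 9 of the 15 sites, and 3 sites were divergent and 3 convergent.

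Ranks within each replicate were used to follow all 546 sites. A site counted as strong in a replicate when it overlapped, by at least 1 bp, one of the 3670 regions of highest signal there, called a top region. It took the rank of the best region that it overlapped, which at the edge of a peak can be a neighbour's. Intergenic peaks numbered 338 (61.9%, with a binomial 95% interval of 57.7 to 66.0 by the exact method, counting error only) in the top regions of all 3 replicates, beside 66.5% of all reproducible peaks, 66.9% of intronic and 67.8% of promoter peaks. Exactly 2 replicates held 134, 1 replicate held 70, and 4 were in none. Replicate 1 held 85.7% of them, replicate 2 held 83.3% and replicate 3 held 78.6%. The reproducible set was derived from these same replicates, so these shares describe it.

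Within each replicate, intergenic peaks ranked below promoter peaks. The peaks ranked here are the reproducible set, which was derived from the same replicates. Their median rank was 1907.5, 2018.5 and 2005 in replicates 1, 2 and 3, against 1592, 1646 and 1638 for promoter peaks and 1945.5, 1806 and 1815 for intronic peaks. They stood 352 ± 31.4 ranks below promoter peaks (SD, n = 3), lower in 3 of 3 replicates (p = 0.25, 2-sided exact sign-flip test, the smallest value that 3 replicates allow). Against intronic peaks the difference was 121.5 ± 138.6 ranks below, with replicate 1 in the opposite direction (p = 0.5, same exact test), so it was smaller than the spread. It was 201 ± 15.9 without replicate 1 (SD, n = 2), 76.0 ± 161 without replicate 2, and 218.8 ± 115.4 with a promoter distance of 1000 bp, where all 3 replicates had the same direction (p = 0.25, same exact test).

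**Figure D1:**
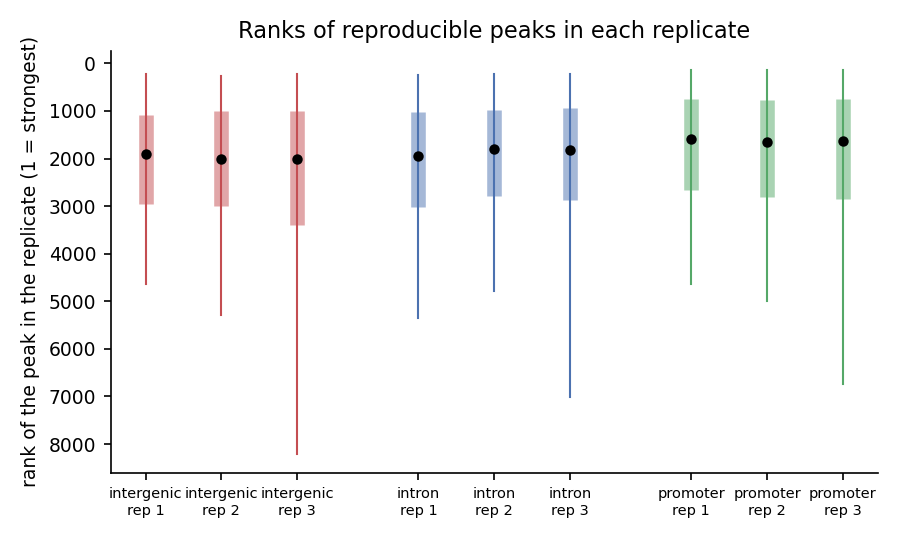
Rank of reproducible peaks in each replicate (vertical axis, 1 is the strongest, drawn at the top) for intergenic, intronic and promoter peaks. Points are medians, thick bars the middle 50% and thin lines the 5th to 95th percentiles over peaks. The medians of intergenic peaks lie below those of promoter peaks in all 3 replicates, and the ranges overlap almost fully.

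Single sites varied more than the medians. Across the sites, replicate signals correlated with a Spearman coefficient of 0.750 for replicates 1 and 2 (544 sites), 0.632 for 1 and 3 (543) and 0.719 for 2 and 3 (541), as a description of regions that share the selection on pooled signal. The lowest rank number of a site and its highest differed by a median factor of 1.92, and by no more than 2 at 297 sites. It exceeded 10 at 6 sites, all of them weakest in replicate 3. The most variable of the 6 lay between Inx2, a gap junction gene, and cm, a gene of vesicle trafficking needed for eye pigment. It ranked 829, 1404 and 16980. The site between rpr, an activator of cell death, and lncRNA:CR46215 ranked 1679, 4635 and 25015. The others lay between lncRNA:CR45440 and PVRAP, LS2 and CG3092, lncRNA:CR44633 and 18w, and lncRNA:CR44853 and lncRNA:CR44854. These 6 sites were picked for their spread. A further 5 sites overlapped no region in 1 replicate, 2 of them in replicate 2 and 3 in replicate 3, and had no rank there.

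Intergenic sequence held a smaller share of top regions than of the genome. It made up 27.2% of the bases of the 6 main arms under the same rule, but 13.9%, 14.8% and 14.8% of the top regions of replicates 1 to 3 (14.5% ± 0.535, SD, n = 3). Of the 25710 pooled candidates that overlapped no reproducible peak, 20.7% (5314) were intergenic outside promoters. The share was 12.3% ± 2.52 for ranks 1 to 100 and 11.5% ± 1.09 for ranks 101 to 500. It was 16.0% ± 1.44 for ranks 2001 to 3670 and 21.6% ± 0.301 beyond rank 20000. The share beyond rank 20000 was above that of every stronger bin in each replicate, but the order among the stronger bins differed, and in replicate 1 the 100 strongest regions (15% intergenic) stood above ranks 2001 to 3670 (14.4%).

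**Figure D2:**
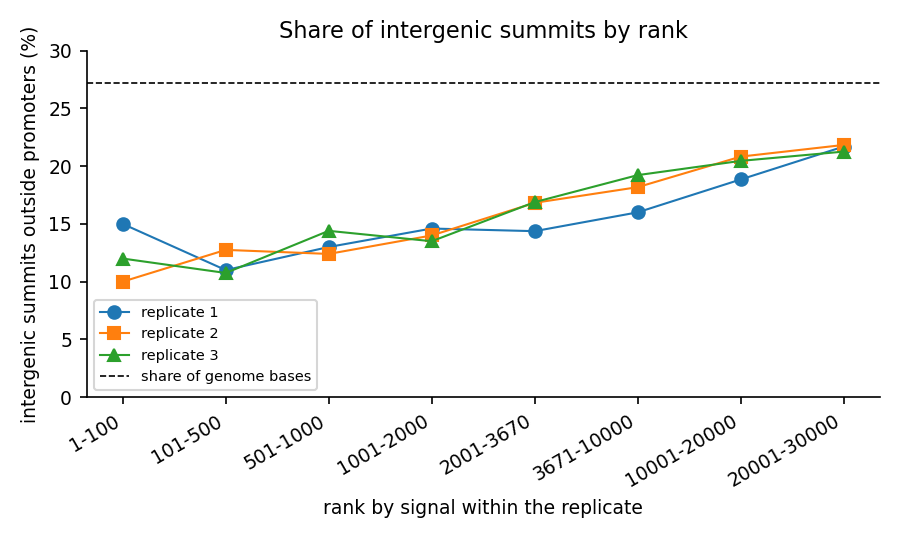
Share of summits that are intergenic and outside promoters (vertical axis, percent) by rank within the list of each replicate (horizontal axis, strongest at the left). The 3 lines are the replicates, which lie between 10% and 15% at ranks 1 to 100 and above 21% beyond rank 20000. The dashed line is the intergenic share of genome bases, 27.2%.

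Chromosome arms 2L and 3L held the most intergenic sites. There were 131 on 2L, 167 on 3L, 101 on 3R, 76 on 2R, 65 on X and 6 on chromosome 4. Per Mb of eligible sequence this came to 19.5 on 2L and 18.4 on 3L, against 13.2 on 3R, 12.2 on X and 10.2 on 2R. Chromosome 4 gave 24.5 from its 6 sites. The weaker intergenic candidates, those overlapping no reproducible peak, were spread much the same way, with 20.8% on 2L and 30.2% on 3L beside 24.0% and 30.6% of the reproducible sites. In the top regions, 2L held 23.5% ± 1.31 and 3L 31.1% ± 0.373 of the intergenic regions (SD, n = 3).

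Neighbouring genes were arranged around the sites as around the weaker candidates. The flanking genes ran in tandem at 275 sites (50.4%), diverged at 140 (25.6%) and converged at 131 (24.0%), against 50.1%, 25.9% and 23.8% of the weaker intergenic candidates. By base, 20.3% of eligible sequence lay between divergent genes and 25.5% between convergent ones. The nearest gene end was a 5′ end at 260 sites (47.6%) and a 3′ end at 286, against 48.6% 5′ ends for weaker candidates. The rule keeps summits away from every TSS but not from 3′ ends, which favours 3′ ends. The majority turned to 5′ ends (51.7%) when sites and genes were defined by protein-coding genes alone. At 380 sites (69.6%) the nearest gene was protein-coding, against 69.3% of weaker candidates. At 152 (27.8%, against 28.7%) it was a non-coding RNA gene other than tRNA or snRNA. The rest were 12 tRNA genes, 1 snRNA gene and 1 pseudogene. At least 1 flanking gene was non-coding at 290 sites (53.1%), close to the 52.3% of weaker candidates.

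The median distance to the nearest TSS was 3239 bp, with quartiles at 1436 and 6591 bp. It was 3394 bp for the weaker intergenic candidates. At most 1000 bp separated 88 sites from a TSS, and 77 lay more than 10 kb away. Counted once per site, the median gap between the flanking genes was 11190 bp, against 12466 bp for the weaker candidates. The median eligible base lay in a gap of 20377 bp. The most distant site, between ND-MLRQ, a gene of respiratory complex I, and AGO3, an Argonaute gene of the piRNA pathway, lay 60587 bp from the nearest TSS on 3L. It ranked 4850, 3860 and 3121, and its summit lay in an annotated transposable element, as did 7 of all 546 (1.28%, against 1.47% of weaker candidates).

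**Figure D3:**
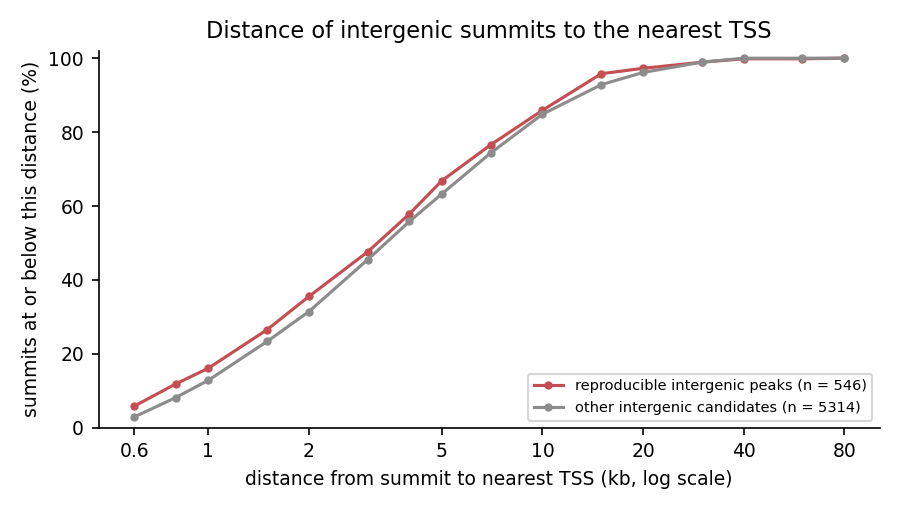
Cumulative share of summits (vertical axis, percent) by distance to the nearest TSS (horizontal axis, kb, log scale) for the 546 reproducible intergenic peaks and the 5314 weaker intergenic candidates. The curves run close together, with 16.1% and 12.9% of summits within 1 kb and 85.9% and 84.8% within 10 kb.

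Some intergenic sites shared a gap. The counts below have no comparison with weaker candidates, and a long gap has more room for sites. The 546 sites lay in 390 gaps between genes, of which 295 held 1 site and 95 held at least 2. The gap between NijA, a cell surface protein gene of the Ninjurin family, and CG43245 on 3L held 10 sites in 75047 bp, of which 7 were top regions in all 3 replicates. Its sites ran from 10738764 to 10769821, and the best had a pooled rank of 379. The next gap, between tRNA:Ile-TAT-1-2 and CG13898 on 3L, held 9 sites in 32964 bp. A gap of 19063 bp between lncRNA:CR44363 and CG7560 on 3L held 6, all of them overlapping top regions in every replicate, with signals from 164 to 364. In each of these gaps, some neighbouring sites took their ranks from the same replicate regions. The sites at 11418385 and 11418591 both ranked 533, 353 and 269. The counts of sites can therefore include parts of 1 region.

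Further gaps held 4 to 6 sites. There were 6 sites between CG7320 and lncRNA:CR45935, and 5 between lncRNA:CR44720 and scyl, an inhibitor of growth signalling through TOR that responds to low oxygen. The gap between lncRNA:CR44603 and lncRNA:CR45695 on 2L held 4 sites, one of which had a pooled rank of 108. Doc2, a T-box gene of heart and amnioserosa development, flanked 5 sites, 4 of them in the gap towards lncRNA:CR46451. The Toll family receptor gene 18w and the rhodopsin gene Rh5 each flanked 4. In all, 30 genes flanked at least 4 sites, and 11 gaps with at least 4 sites held 60 of the 546.

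Close neighbours were about as frequent as for all reproducible peaks. Another reproducible summit of any kind lay within 5 kb of 243 intergenic sites (44.5%), beside 46.9% of all reproducible peaks, and another intergenic one within 5 kb of 185 (33.9%). Some of these neighbours lay in overlapping intervals, such as the summits at 12006705 and 12006905 on 2L. How many were parts of 1 region was not counted. In the top regions the share for intergenic summits was 46.3%, 44.7% and 46.9% in replicates 1 to 3, against 52.0%, 51.8% and 51.1% for intronic summits. The difference was -5.69 ± 1.44 percentage points (SD, n = 3), negative in 3 of 3 replicates (p = 0.25, 2-sided exact sign-flip test).

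In all, 737 genes flanked an intergenic site. Of 13945 protein-coding genes, 530 (3.8%) did so, and 18.2% flanked a weaker intergenic candidate. A gene inside another gene or in a dense cluster has less intergenic sequence beside it, and among protein-coding genes that flank any reproducible or weaker intergenic region 19.9% flanked a site. The lists were chosen with results of these data known, so the counts describe them without a test. A flanking gene is the nearest on either side, so it can lie far from the site.

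Among 24 segmentation genes, 5 flanked a site, or 26.3% of those with any intergenic region. After slp1 and slp2 came wg, the Wingless ligand gene, with a site 25534 bp away that ranked 1108, 1511 and 674. The gap gene kni followed with ranks of 984, 2258 and 1402, 16229 bp from its site, which lay 1231 bp from cmpy. The pair-rule gene odd came next, with ranks of 1390, 2127 and 6216. Of 26 neural and eye transcription factor genes, 7 flanked a site (38.9% of those with any region), but only 2 were the gene of the nearest TSS. SoxN, a Sox gene of the early nervous system, had its best site at ranks 685, 414 and 736. The Pax gene toy came next, at ranks 1656, 1214 and 531. The Pax genes eyg and toe lay 5112 and 24757 bp from a shared site at ranks 974, 1723 and 1247. The rest were otp, nerfin-1 and pros. The site beside pros ranked 2458, 6578 and 9999, so it was a top region in replicate 1 alone.

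Homeobox genes of limb and body patterning flanked a site in 6 of 18 cases (35.3% of those with any region). Below C15 stood vvl, a POU domain gene of trachea and nervous system, at ranks 687, 974 and 700, oc, a head gap gene, at 1268, 703 and 809, and ems, another head gap gene, at 1244, 1244 and 941. Mesoderm and muscle regulators did so in 6 of 18 cases (42.9%). The T-box genes mid, Doc2, Doc1 and H15 led this list, with mid at ranks 877, 1256 and 1067 and Doc2 at 1544, 853 and 1154. The others were bin and zfh1.

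Secreted ligand genes flanked a site in 7 of 25 cases (41.2%). The neuregulin-like ligand gene vn had the strongest, 24148 bp away, with ranks of 209, 720 and 618. Wnt4 shared its best site with wg, and the fibroblast growth factor genes pyr and ths shared a site on 2R at ranks 2344, 818 and 888. The Jak/STAT ligand gene upd1 and the Notch ligand gene Ser followed, and the site beside Ser was a top region in no replicate. Of the 17 Notch and E(spl) genes, 3 flanked a site (27.3%), namely E(spl)malpha-BFM, E(spl)m2-BFM and Ser. The E(spl)malpha-BFM site, 1795 bp away, ranked 586, 375 and 988.

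In the remaining lists, the number of genes with any intergenic region beside them differed widely. None of the 8 Hox genes flanked an intergenic site, although 4 flanked a weaker candidate. The annotation decides this count, since 4 of the 8 flanked a site when sites and flanking genes were both defined by protein-coding genes alone, and the count of segmentation genes became 9 and that of Notch and E(spl) genes 6. None of 13 insulator protein genes flanked a site, but only 1 of them flanked any intergenic region, so this count carries no information. Of 92 cytoplasmic ribosomal protein genes, 5 did (RpS10b, RpS23, RpLP0, RpS7 and RpS15Aa), or 26.3% of those with any region, the same share as for segmentation genes. The RpS7 site shows the limit of ranking by overlap, since its pooled rank was 2427 while the regions it overlapped ranked 161, 141 and 157. Of 54 genes for cell surface recognition proteins of the dpr, DIP, beat and side families, 4 flanked a site (13.8% of those with any region). So did 12 of 295 tRNA genes (24.5%) and 2 of 289 small nuclear and nucleolar RNA genes (40% of only 5).

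Summits of intergenic peaks were rich in A and T. The mean A+T content was 64.6% in the 101 bp around the summit and 58.3% in the same length 500 bp to the right, and 365 of 546 sites were richer at the summit. In the top regions the difference was 5.76, 7.00 and 5.12 percentage points in replicates 1 to 3 (5.96 ± 0.956, SD, n = 3, p = 0.25, 2-sided exact sign-flip test). It was 7.44 ± 0.654 in introns and 8.16 ± 1.01 at promoters, and the value between genes minus that in introns was -1.47 ± 0.469 points, negative in 3 of 3 replicates (p = 0.25, same exact test). Its size depended on the settings, at -2.61 with lists of 2000 regions, -0.932 with windows of 100 bp to each side and -0.954 with the flank on the left. At the 5314 weaker intergenic candidates it was 0.85 points.

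**Figure D4:**
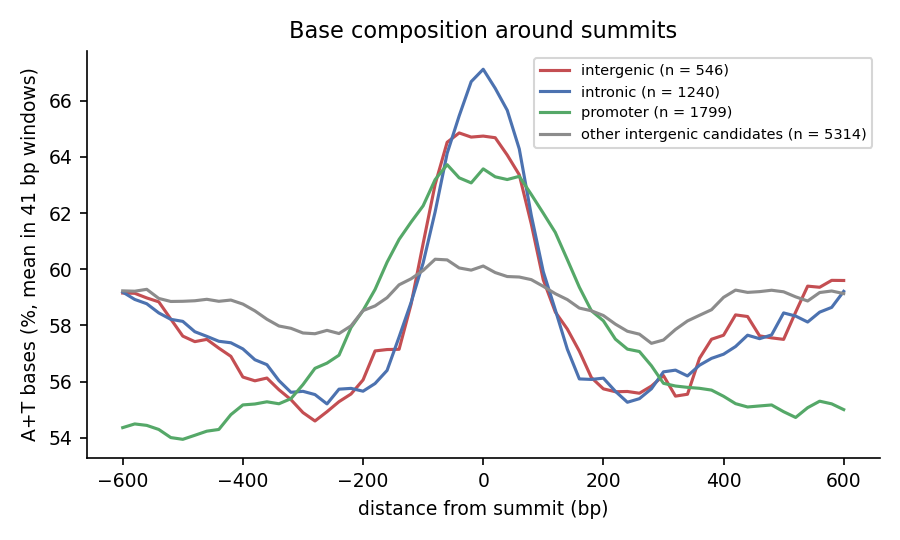
Mean A+T content (vertical axis, percent, in windows of 41 bp; the axis does not start at 0) by distance from the summit (horizontal axis, bp) for the 4 sets named in the key. Intergenic peaks reach 64.7% at the summit and fall to 54.6% at 280 bp to the left, whereas weaker intergenic candidates stay within 57.4% and 60.4%.

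The commonest words were runs of A and T. The 10 words of 8 bases most enriched at summits of intronic and promoter peaks held no G or C, and 9 of these 10 were also more frequent at summits of intergenic peaks than beside them. TTTAAAAA occurred at 21 summits and 10 flanks, and TTAAAAAA at 23 and 6. Counted in the intergenic peaks themselves, AAAAATAT occurred at 37 summits and 15 flanks. The first word with G and C in that order was AGATGGCG, at 20 summits and 0 flanks.

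Of 16 elements searched on both strands, 5 were more frequent at the summit than 500 bp to the right in all 3 replicates, 3 were less frequent and 8 were mixed. TATAAA, the TATA box, stood at 17.8% ± 0.754 of intergenic summits and 11.6% ± 0.785 of flanks, a difference of 6.16 ± 1.53 points (SD, n = 3). The same difference was larger in introns (7.72 ± 0.853) and at promoters (10.3 ± 1.28), so it was not particular to intergenic peaks. The homeodomain element TAATTA differed by 0.93 ± 0.539 points and the tract AAAAAAAA by 2.28 ± 1.23. In introns and at promoters TAATTA differed by more (means of 2.28 and 3.94) and the tract by less (1.00 and 1.73). All of these words hold only A and T, and the summits were richer in A+T than the flanks. How far the words exceed what that richness gives was not tested. The tract was as frequent to the left of the intergenic peaks as at their summits, at 7.51% each. The DRE element TATCGATA, which is bound by the promoter factor DREF, and the M1BP element GGTCACAC were higher too, but only 3 and 2 of the 546 sites held them, among them the slp1 and slp2 site shown first. GAGAG, bound by GAGA factor, differed by -1.75 ± 0.156 points, the E-box CAGCTG by -1.62 ± 0.382 and the repeat CACACACA by -1.13 ± 0.189. In introns and at promoters the mean differences were -4.70 and -2.28 for GAGAG and -2.99 and -1.81 for CACACACA. For CAGCTG they were -1.69 and 0.33. The direction for GAGAG depended on the flank. Of the 546 sites, 10.1% held it at the summit, 13.6% to the right and 8.61% to the left. With 3 replicates and 16 elements, no exact test could place any of these beyond the spread at the usual threshold.

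The element of the insulator protein BEAF-32 was rarer at intergenic summits than at promoter summits. CGATA, which TATCGATA also contains, stood at 10.8% of intergenic summits and 12.6% of their flanks, and at 22.5% of promoter summits and 10.9% of their flanks. In the top regions the summit to flank difference between genes minus that at promoters was -10.5 ± 1.79 points, negative in 3 of 3 replicates (SD, n = 3, p = 0.25, 2-sided exact sign-flip test). For TATCGATA it was -2.67 ± 0.443 points (p = 0.25, same exact test). The Polycomb recruiter element GCCAT, bound by Pho, was found at 18.5% of summits and 16.8% of flanks. GCCAT overlaps the AGATGGCG core read on the other strand, and without the sites that hold a CTCF core it stood at 15.3%.

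The CTCF core stood at 28 of 546 intergenic summits (5.13%), at 2 of their right flanks (0.366%) and at 0.916% of their left flanks. CTCF is an insulator protein that in flies marks boundaries of the Hox clusters and other domains. The core was singled out after these values had been seen, so it is described without a test. The right flank was part of that choice, so the low share there partly follows from it. All reproducible peaks held it at 3.13% of summits, intronic peaks at 2.50% (31), promoter peaks at 2.56% (46) and the 85 exonic peaks at 11.8% (10), so intergenic peaks were not the class with the highest share. Weaker intergenic candidates held it at 1.11% of summits and 0.489% of flanks. In the top regions it stood at 6.27%, 3.49% and 5.15% of intergenic summits in replicates 1 to 3 (4.97% ± 1.40, SD, n = 3), against 0.498% ± 0.206 of flanks. Every replicate was higher between genes than in introns, where the shares were 2.88%, 1.62% and 1.95%.

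**Figure D5:**
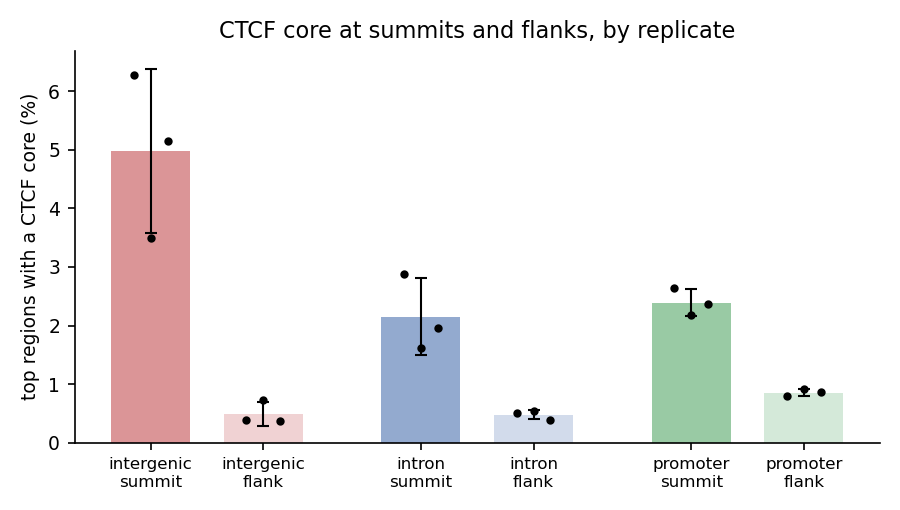
Share of top regions with a CTCF core, AGATGGCG or AGGTGGCG (vertical axis, percent), within 50 bp of the summit and in the window 500 bp to the right. Bars are means of 3 replicates, error bars the SD and points the replicates. Intergenic summits reach 4.97% and intronic summits 2.15%, and the flanks of all 3 classes stay below 1%.

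The cores lay close to the summits. Matches numbered 0.898 per kb within 25 bp of intergenic summits, 0.623 at 26 to 50 bp, 0.147 at 51 to 100 bp and 0.0733 at 101 to 200 bp. The core was singled out after its counts within 50 bp of the summit were seen, so the higher density there partly follows from that choice. Of the 28 sites, 20 held AGATGGCG, 15 held AGGTGGCG and 7 held both. The site between soti and cv-c, shown above with 3 cores, was the strongest of them and ranked 75, 86 and 93 in the replicates. The next, between CG13970 and CG10651, ranked 61, 202 and 83. The site between the junctophilin gene jp and lncRNA:CR44149 ranked 73, 207 and 688, and was thus much weaker in replicate 3 than in replicate 1.

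Other values of the sites with a core were compared with those without, as a description. Sites with a core lay a median of 1946 bp from a TSS, against 3296 bp, and their summits held 56.3% A+T, against 65.1%. The core is rich in G and C and lies in the same window, so part of this gap follows from the split. In the flanks the values were 60.6% and 58.1%. Their ranks did not differ in one direction, with medians of 1475, 2147 and 1632 in replicates 1 to 3 against 1935, 2018.5 and 2073, so that replicate 2 went the other way. Of the 28, 18 were top regions in all 3 replicates (64.3%), near the 61.8% of the sites without a core. Another reproducible summit lay within 5 kb of 5 of the 28, beside 44.5% of all 546 sites. Another word, CACTGAGA, stood at 16 intergenic summits (2.93%) and 0.366% of flanks, beside 2.66% of intronic summits, 1.85% of all reproducible peaks and 1.62% of weaker intergenic candidates. The Su(Hw) element core GCATACTT stood at 8 (1.47%) and 0.183% of flanks, beside 0.817% of all reproducible peaks and 1.11% of weaker candidates. Both were chosen after their values were seen.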

How the data were processed

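The deposited files are peak lists on dm6 from 3 ChIP-seq replicates, their pool and the reproducible set, which the authors derived with the irreproducible discovery rate, per the notes deposited with the lists. For the peak caller, its settings and the aligner, nothing is stated in the labels or files used. Each region carries a signal score and the −log10 of a q-value by the authors. All reproducible peaks have the same q-value, so only the score was used, for ranking. Lists on dm3 were not used. Read depth is unknown.

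Summits were placed on Ensembl 115 gene models (18164 genes, 23581 TSSs, 6 arms) and the Release 6 genome with Python 3.11.15, pandas 2.3.3, numpy 2.4.6 and scipy 1.17.1. Motif windows reached 50 bp to each side of the summit, and control windows were centred 500 bp to the right. Values with an SD come from the top regions of each replicate, with 2 exceptions. Differences in rank use the ranks of the reproducible peaks in each replicate, and shares by rank use the whole list of each replicate. Differences were compared by an exact 2-sided sign-flip test, which cannot give a p below 0.25 with 3 replicates. Nothing in the labels pairs replicates with another group. Location, flanking genes, overlap and the sign-flip test were checked on simulated data, and the motif search was not.

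The peaks, gene lists, motifs and tests were chosen with earlier results of these data known. Named genes are those flanking the 15 strongest sites, those flanking at least 4 sites, those flanking the most distant site, and up to 4 per list. Genes named beyond these, such as the remaining members of a list, tara and the variable sites, were chosen after their values were seen.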

Additional observations from a re-analysis of the deposited data

How the results depend on the processing

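No comparison between groups, paired or not, was possible because the study has only 1 group. Differences between peak classes, or between summit and flank, were taken within each replicate. The mean differences in rank, in A+T content and in close neighbours kept their sign under the alternatives run. For single elements the direction could change with the flank on the left, as it did for GAGAG among all sites. The majority of nearest gene ends turned from 3′ to 5′ with protein-coding genes only (51.7% 5′ ends, against 47.6%). The cause was not tested for the values that moved, beyond what each setting changes by construction. The number of intergenic sites, 546, was 249 with signal above the median of the set and 338 with top regions in all 3 replicates. The share in the top regions of all replicates, 61.9%, was 54.0% when summits had to lie within 100 bp, 34.1% with lists of 2000 regions, and 67.6% to 74.2% leaving out 1 replicate. The intergenic share of top regions, 14.5%, was 13.3% in lists of 2000 regions, 18.2% with a promoter distance of 250 bp and 12.0% with 1000 bp. The number of elements higher at the summit in all replicates, 5, was 2 with the flank on the left. The share with another summit within 5 kb, 44.5%, was 25.6% within 2 kb and 62.5% within 10 kb. The median TSS distance was 4470.5 bp with protein-coding genes only, 2163.5 bp with a promoter distance of 250 bp and 4005 bp with 1000 bp. Counting only the gene of the nearest TSS left 35 of 57 list entries. Neural and eye genes fell from 7 to 2, mesoderm and muscle regulators from 6 to 3, and ribosomal protein genes from 5 to 2. Segmentation genes fell from 5 to 4, and Notch and E(spl) genes stayed at 3. The CTCF core share, 5.13%, lay between 4.37% and 6.42% under alternatives chosen after seeing the data. Peak lists without read counts give no measure of depth, and 3 replicates cannot reach p below 0.25.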
